A study of Mus musculus with 4 samples.

Results

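The genes examined here encode the respiratory chain and the ATP synthase of mitochondria, in single cells of C3H10T1/2, an established murine line with mesenchymal progenitor character. Members were the genes whose symbol starts with mt-, Ndufa, Ndufb, Ndufc, Ndufs, Ndufv, Cox4, Cox5, Cox6, Cox7, Cox8, Uqcr or Atp5 and that had at least 100 UMIs (unique molecular identifiers, each standing for 1 captured RNA molecule) over the 4 libraries. The rule gave 101 members among the 14425 genes with that many UMIs and the 32285 genes listed: 13 mt- genes encoded in mitochondrial DNA and 88 nuclear genes. Of the 103 matching symbols, Cox6b2 with 50 UMIs and Cox8c with 12 UMIs stayed under the minimum, and the member nearest above it was Cox4i2 with 161 UMIs. Among the nuclear members, 8 were Ndufaf genes, whose proteins help to assemble complex I without staying in it, and the other 80 are called nuclear subunit genes when they are summed.

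The cells carried a lentiviral construct driven by the EF1 promoter that expresses human histone H3.1 with epitope tags, either wild type (H3WT) or with arginine 26 changed to cysteine (H3R26C), and were selected as transduced populations. Each was given 5-Aza (5-azacytidine), an inhibitor of DNA methyltransferases, at 3 µM for 24 h with collection on day 28, or the vehicle DMSO. Each of the 4 conditions (H3WT DMSO, H3WT 5-Aza, H3R26C DMSO and H3R26C 5-Aza) was 1 library of droplet single-cell RNA sequencing, so a difference between conditions has no replicate check and cannot be told apart from a difference between libraries. The day of collection is not given for DMSO in the sources used here, and the level of the transgene was not analysed here.

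The respiratory chain passes electrons from NADH and succinate to oxygen and uses the energy to pump protons, which then drive ATP synthase. Complexes I, III and IV and ATP synthase each combine subunits from nuclear genes with a few subunits encoded in mitochondrial DNA, whereas complex II is wholly nuclear. Mitochondrial DNA is transcribed as long transcripts that are cut into separate RNAs, so its genes share their transcription but can differ in the stability of the RNA. Complex IV (cytochrome c oxidase) has several subunits with alternative forms from separate genes, among them forms typical of heart and skeletal muscle (Cox6a2, Cox7a1 and Cox8b), the latter also of brown fat, a testis form (Cox7b2), a lung form (Cox4i2) and Ndufa4l2, a hypoxia-inducible relative of the subunit Ndufa4.

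Barcodes with at least 5000 UMIs, at least 1500 genes and at most 20% mt- UMIs were kept, 3710 to 7619 per library with 84060490 to 110712425 UMIs. The median depth ran from 13123 to 22420 UMIs per cell and was lower in both 5-Aza libraries. Of 21804 distinct barcode sequences among the kept cells, 243 occurred in more than 1 library. Col1a1, Col3a1, Vim and the other 5 mesenchymal markers of the list were all detected in every library, with a summed level of 13860 to 14916 CPM (UMIs of a gene per 1000000 UMIs of the library). The 5 endothelial markers summed to 4.69 to 10.6 CPM and the 5 blood markers to 1.89 to 12.1 CPM, with Hbb-bs, Cd3e, Hba-a1 and Ptprc at 0 in both DMSO libraries. Cd68, the remaining blood marker, was at 4.98 CPM in H3WT DMSO, 9.91 CPM in H3WT 5-Aza, 1.89 CPM in H3R26C DMSO and 10.7 CPM in H3R26C 5-Aza. With 5-Aza in H3R26C, Cd68, Ptprc, Emcn, Kdr and Cdh5 were at least 1.5-fold higher, where 14.5% of all genes were. Tek was as much lower, where 9.26% of all genes were. The 16 sarcomeric genes summed to 29.2 CPM in H3WT DMSO and 23.2 CPM in H3R26C DMSO, and to 2246 CPM and 2687 CPM with 5-Aza. Those of the mitotic list were at 273.7, 484, 563 and 963 CPM in H3WT DMSO, H3WT 5-Aza, H3R26C DMSO and H3R26C 5-Aza. Values below follow this order of libraries wherever 4 of them are given.

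The nuclear part of the respiratory chain differed little between the libraries, whereas the complex IV forms Ndufa4l2, Cox6a2 and Cox7b2 were higher with 5-Aza by log2 ratios of 3.03 to 7.24 and the mitochondrial genes were highest in H3WT DMSO. The 80 nuclear subunit genes together took 2.84%, 2.90%, 3.31% and 3.02% of all UMIs. With 5-Aza in H3WT, 5 of 88 nuclear members (5.68%) were at least 1.5-fold higher, where 8.94% of all genes tested were, and 0 were as much lower, where 1.62% of all genes were. The 5 were Ndufa4l2, Cox6a2, Cox7b2, Cox8b and Cox7a1. A fold here is a ratio of CPM with 1 CPM added to each value, and it compares 2 libraries. With 5-Aza in H3R26C, 4 of 88 (4.55%) were at least 1.5-fold higher (Ndufa4l2, Cox6a2, Cox7b2 and Cox7a1) against 14.5% of all genes, and 0 were lower against 9.26% of all genes.

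Between the genotypes with DMSO, 2 of 88 nuclear members were at least 1.5-fold higher in H3R26C (2.27%, against 5.17% of all genes), namely Cox7a1 and Atp5k, a small subunit of the membrane part of ATP synthase, and 0 were lower (1.97% of all genes). With 5-Aza, Ndufa4l2, Cox7a1 and Cox4i2 were at least 1.5-fold higher in H3R26C (3.41%, against 10.5% of all genes) and Cox8b was lower (1.14%, against 7.99% of all genes). Some of these calls depended on the processing. Cox7a1 was no longer past 1.5-fold with 5-Aza without barcodes of at least 1% sarcomeric UMIs (log2 ratios of 0.30 in H3WT and 0.07 in H3R26C), in cells of 10000 to 20000 UMIs (0.21 and 0.02) and with 5 CPM added instead of 1 (0.38 and 0.58). With 5-Aza in H3R26C, Cox8b passed it on the lower side without the sarcomeric barcodes (-1.08) and in cells of 10000 to 20000 UMIs (-0.85). Atp5k was just under it in cells of that depth (0.584), and Cox4i2, which rests on 18 and 99 UMIs, was at 0.18 with 5 CPM added. The members closest to the limit without passing it were Ndufa4 with 5-Aza in H3R26C (log2 ratio -0.58) and Cox7b2 between the genotypes with 5-Aza (0.58). Apart from the tissue forms, Atp5k was the single nuclear member past 1.5-fold among the 4 comparisons as reported, while Ndufa4 passed it with 5-Aza in H3R26C in cells of 10000 to 20000 UMIs (-0.63) and without the sarcomeric barcodes (-0.61). Counting error was small for the abundant members: for the 83 members with at least 100 CPM in each library, the upper bound of the 95% Poisson interval lay at most 2.08% above the value. These intervals cover counting error only.

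**Figure D1:**
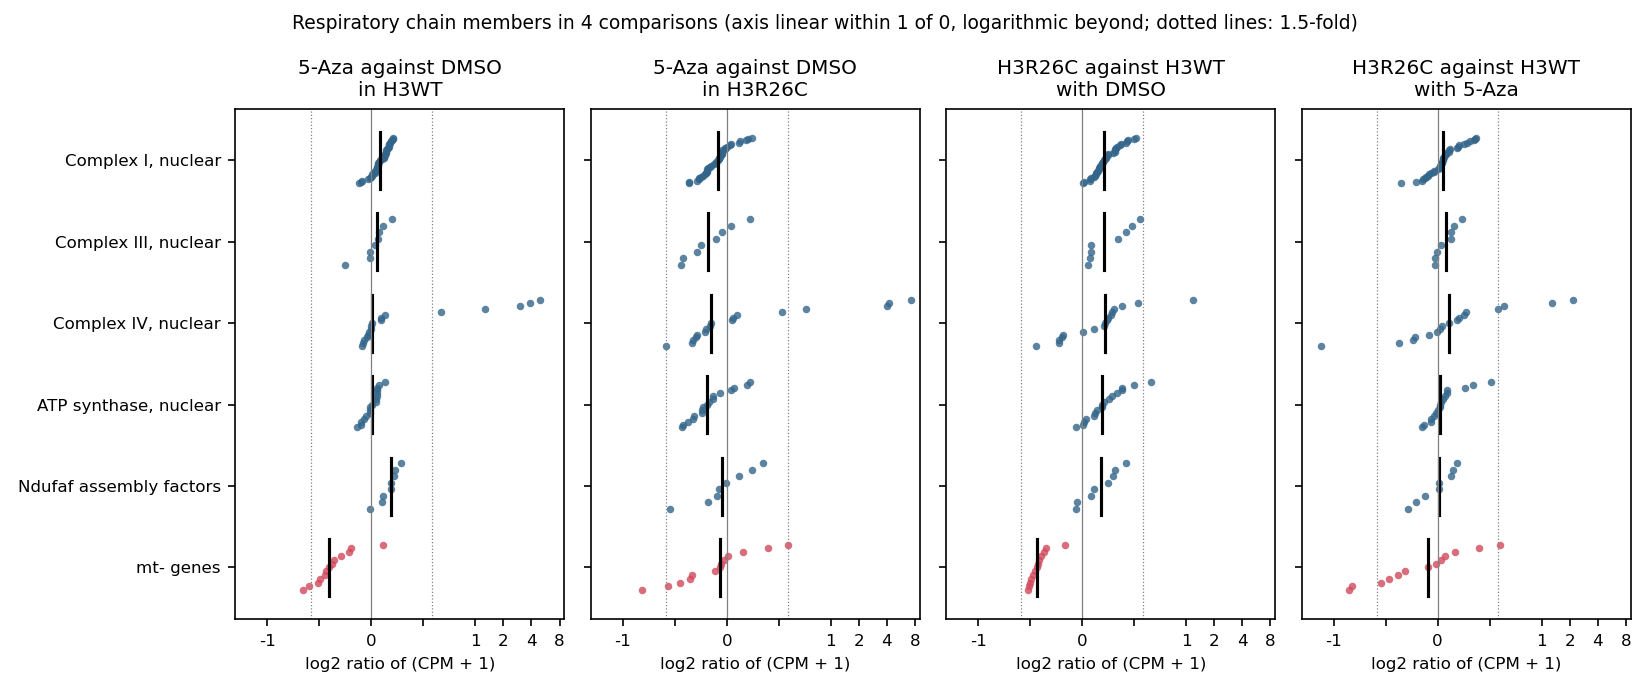
Each point is 1 member, plotted by its log2 ratio of CPM + 1 in the comparison named above the panel and grouped by complex; black bars are medians and dotted lines mark 1.5-fold. Nearly all nuclear members lie between the dotted lines, the tissue forms of complex IV reach a log2 ratio of 7.24, and the mt- genes have a median of -0.41 with 5-Aza in H3WT and of -0.44 in H3R26C DMSO.

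Most of the small differences of the nuclear genes had a common direction. In H3R26C DMSO, 79 of 88 nuclear members were above their level in H3WT DMSO, where 7909 of 14425 genes were. The nuclear members had a median log2 ratio of 0.21, where the median of all genes was 0.023. Complex IV was mixed: of its 17 nuclear genes 12 were above their level in H3WT DMSO and 5 below. Of the 8 Ndufaf genes 6 were above. All 37 nuclear complex I subunits were above, with log2 ratios from 0.008 to 0.51, as were all 8 of complex III and 16 of 17 of ATP synthase. Those with the largest differences were Atp5k (log2 ratio 0.67), the complex III subunit Uqcr10 (0.56), the complex IV subunit Cox6c (0.54), the complex I subunit Ndufa3 (0.51) and the ATP synthase subunit Atp5j2 (0.50). Atp5k stood at 129 CPM in H3WT DMSO, 142 CPM in H3WT 5-Aza, 206 CPM in H3R26C DMSO and 179.8 CPM in H3R26C 5-Aza, so both H3R26C libraries were above both H3WT libraries. Among the few on the other side were Cox4i1 (-0.22), the widely expressed form of the largest nuclear complex IV subunit, Cox7a2l (-0.19), which helps to join complexes III and IV into supercomplexes, Atp5g3 (-0.06), Ndufaf3 (-0.06) and Ndufaf7 (-0.05).

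With 5-Aza in H3R26C the direction was the opposite: 64 of 88 nuclear members were lower than with DMSO, where 7427 of 14425 genes were. The nuclear members had a median log2 ratio of -0.11 against -0.013 for all genes. Ndufa4 was lowest at -0.58, followed by Ndufaf8 (-0.54), the complex III subunit Uqcr11 (-0.44), and Atp5mpl (-0.44) and Atp5l (-0.42) of ATP synthase. Ndufa4, first assigned to complex I and since recognised as a complex IV subunit, was at 744 CPM, 709.8 CPM, 902 CPM and 602 CPM. The H3R26C libraries were thus the highest and the lowest for this gene, with both H3WT libraries between them. Members on the higher side, beyond the tissue forms, were Ndufaf3 (0.35), Ndufs4 (0.25), an accessory subunit of complex I, and Ndufaf7 (0.24).

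With 5-Aza in H3WT, 61 of 88 nuclear members were higher, where 8269 of 14425 genes were. The median of the nuclear members was 0.06, near the 0.045 of all genes. Their summed log2 ratio was 0.032, and -0.032 in cells of 10000 to 20000 UMIs, so it had no stable direction. Among members of at least 20 CPM, beyond the tissue forms, Ndufaf4 (0.23) and Ndufa11 (0.21) were the highest, and Cox7a2l (-0.31), Uqcrh (-0.26), Atp5mpl (-0.14), Ndufa8 (-0.12) and Atp5a1 (-0.10) were the lowest. Of the 8 Ndufaf genes 7 were higher, with a median of 0.19. Between the genotypes with 5-Aza, the median was 0.04, and the largest differences beyond the tissue forms were those of Atp5g2 (0.52), Ndufa6 (0.37), Ndufs4 (0.36) and Ndufb9 (0.35) on the higher side and of Cox4i1 (-0.37), Ndufb7 (-0.36), Ndufaf8 (-0.28) and Ndufa4 (-0.24) on the lower side. The 7 nuclear core subunits of complex I, which carry its flavin and iron-sulfur centres, had medians of 0.04, -0.12, 0.14 and 0.02 in the 4 comparisons, within the range of the 30 accessory subunits. The comparisons share libraries, so their directions are not independent of each other.

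Atp5g1, Atp5g2 and Atp5g3 encode the same mature c subunit of the ATP synthase rotor and are regulated separately. Atp5g2 made up 32.4%, 33.1%, 36.7% and 43.1% of the summed UMIs of the 3 genes, and its exact 95% binomial interval in H3R26C 5-Aza was 42.9% to 43.3%. Atp5g3 made up 43.9%, 43.7%, 37.8% and 36.3%, and Atp5g1 23.7%, 23.2%, 25.5% and 20.6%. Atp5g3 was therefore the largest source in 3 libraries and Atp5g2 in H3R26C 5-Aza. The shares of both H3WT libraries differed by less than 1 percentage point for each of the 3 genes.

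The 13 mitochondrial genes took 3.95%, 3.01%, 2.89% and 2.69% of all UMIs and were thus highest in H3WT DMSO. Relative to that library their summed level was lower by a log2 ratio of -0.39 in H3WT 5-Aza and -0.45 in H3R26C DMSO, while H3R26C 5-Aza differed from H3R26C DMSO by -0.10 and from H3WT 5-Aza by -0.16. In cells of 10000 to 20000 UMIs the difference with 5-Aza was -0.61 in H3WT and -0.19 in H3R26C. In H3R26C DMSO, where 6428 of 14425 genes were lower than in H3WT DMSO, all 13 were lower, from -0.52 for mt-Co2 to -0.16 for mt-Nd3. Of the 13, 0 were past 1.5-fold in either direction, where 5.17% of all genes were higher and 1.97% lower. In cells of 10000 to 20000 UMIs 6 were past it, all on the lower side (mt-Co2, mt-Nd1, mt-Co3, mt-Atp8, mt-Cytb and mt-Atp6, from -0.64 to -0.59). The share of all genes past it at this depth is not given here, and the median of all genes was 0.039. Apart from mt-Nd3, the log2 ratios in H3R26C DMSO over all kept cells lay between -0.52 and -0.35. The catalytic subunit of complex IV, mt-Co1, was at 7010 CPM, 5274 CPM, 5420.2 CPM and 5209.8 CPM. The one mitochondrial subunit of complex III, mt-Cytb, was at 5369 CPM, 3748 CPM, 3800.5 CPM and 3515 CPM. For both genes H3WT DMSO stood above the other three, which were close to each other.

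With 5-Aza in H3WT, where 6149 of 14425 genes were lower, 12 of 13 mitochondrial genes were lower. Of these, 2 were past 1.5-fold, mt-Nd3 (-0.66) and mt-Co3 (-0.60), which is 15.4% of 13 where 1.62% of all genes were lower, and 0 were past it on the higher side, where 8.94% of all genes were. Of the others, mt-Cytb was at -0.52, mt-Atp6 at -0.49, mt-Atp8 at -0.45, mt-Co2 at -0.44, mt-Co1 at -0.41, mt-Nd4 at -0.38, mt-Nd6 at -0.36, mt-Nd2 at -0.30, mt-Nd1 at -0.22 and mt-Nd5 at -0.19. The exception was mt-Nd4l (0.12), at 2816 CPM with DMSO and 3054 CPM with 5-Aza. The genes were thus not lower by the same factor, the log2 ratios spanning from -0.66 to 0.12. The upper end is mt-Nd4l, whose summed level with mt-Nd4, the gene it overlaps, was at -0.06. In cells of 10000 to 20000 UMIs, mt-Atp6 (-0.75), mt-Atp8 (-0.73), mt-Cytb (-0.70), mt-Co2 (-0.64), mt-Co1 (-0.62) and mt-Nd4 (-0.61) were past 1.5-fold as well. The share of all genes past it at this depth is not given here, and the median of all genes was 0.064.

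In H3R26C the make-up of the mitochondrial RNA differed with 5-Aza more than its total did. The complex I subunit genes mt-Nd4 (-0.81) and mt-Nd5 (-0.57), the ATP synthase subunit mt-Atp6 (-0.45), mt-Nd2 (-0.35) and mt-Nd3 (-0.33) were lower, whereas mt-Nd6 (0.59), mt-Atp8 (0.40) and mt-Co2 (0.16) were higher. Those near 0 were mt-Cytb (-0.11), mt-Co3 (-0.07), mt-Co1 (-0.06), mt-Nd1 (-0.03) and mt-Nd4l (0.02). Past 1.5-fold were mt-Nd4 on the lower side and mt-Nd6 on the higher, 1 of 13 each (7.69%), below the 9.26% of all genes that were lower and the 14.5% that were higher. Against H3WT 5-Aza, mt-Nd6 (0.60) was past it on the higher side (7.69%, against 10.5% of all genes) and mt-Nd5 (-0.85) and mt-Nd4 (-0.83) on the lower (15.4%, against 7.99%). With 5 CPM added mt-Nd6 was just under the limit in both comparisons (0.57 and 0.58), and with 5-Aza in H3R26C also without the sarcomeric barcodes (0.57) and in cells of 10000 to 20000 UMIs (0.50), where mt-Nd5 was past it on the lower side (-0.61 and -0.67). mt-Nd4 stood at 1832 CPM, 1408 CPM, 1393 CPM and 792 CPM, and mt-Nd6, the one protein gene read from the other strand, at 106 CPM, 82.2 CPM, 82.98 CPM and 125 CPM. H3R26C 5-Aza was therefore the lowest of the libraries for mt-Nd4 and the highest for mt-Nd6. Summed with the overlapping gene mt-Nd4l, mt-Nd4 had a log2 ratio of -0.26 for 5-Aza in H3R26C.

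**Figure D2:**
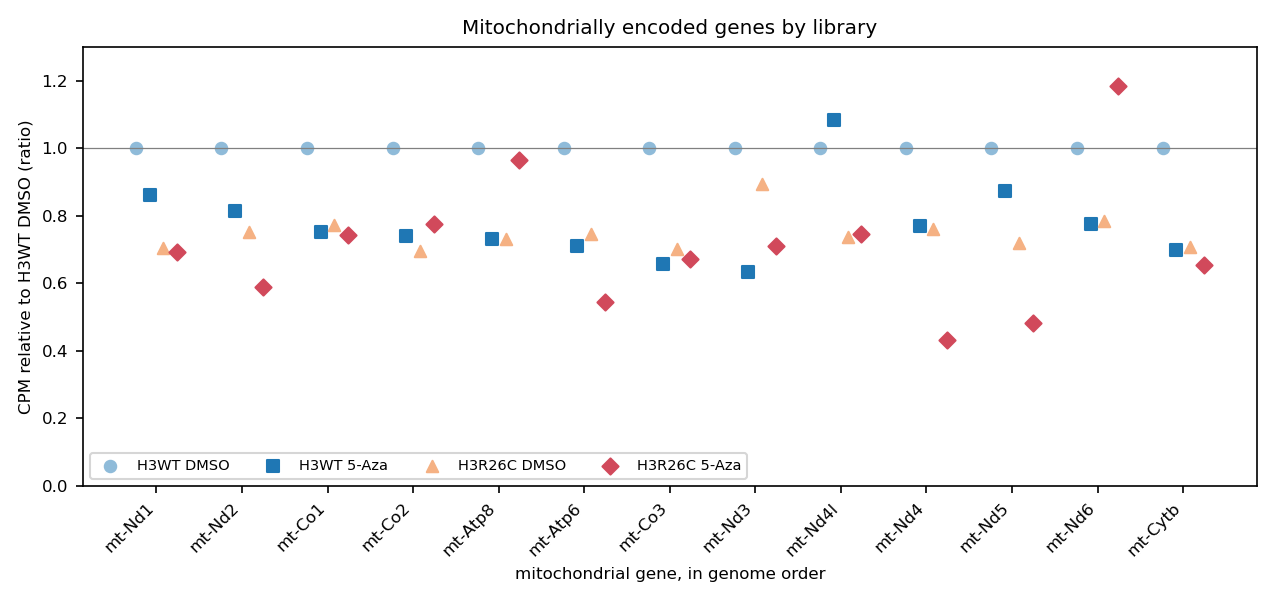
CPM of each of the 13 mitochondrial genes divided by its CPM in H3WT DMSO, with 1 symbol per library and the genes in genome order. H3R26C DMSO lies below 1 for every gene, and H3R26C 5-Aza spreads from 792 of 1832 CPM for mt-Nd4 to 125 against 106 CPM for mt-Nd6.

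Some of these genes overlap in mitochondrial DNA, and a read in an overlap on the same strand cannot be assigned to one of them. In the GENCODE M21 annotation of GRCm38, mt-Atp8 and mt-Atp6 share 43 bases and mt-Nd4l and mt-Nd4 share 7 bases, and mt-Nd5 and mt-Nd6 overlap by 14 bases on opposite strands. The coding sequence of mt-Atp8 and the last 60 bases of mt-Nd4l are shown because the split between these neighbours is what differed, with the bases shared with mt-Atp6 or mt-Nd4 in capitals.
mt-Atp8 (chrM:7766-7969, plus strand): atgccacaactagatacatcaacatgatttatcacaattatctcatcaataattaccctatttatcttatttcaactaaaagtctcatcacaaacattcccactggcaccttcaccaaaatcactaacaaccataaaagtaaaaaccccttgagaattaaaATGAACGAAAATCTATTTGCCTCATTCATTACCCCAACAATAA
mt-Nd4l (chrM:10114-10173, plus strand): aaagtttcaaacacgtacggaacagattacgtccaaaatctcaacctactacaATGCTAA

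Each pair is translated from 1 kind of RNA that carries both reading frames. UMIs given to mt-Atp8 or mt-Atp6 can thus come from different stretches of this kind of RNA. Which end of the RNA the assay reads is not given in the sources used here. The mt-Atp8 share of the UMIs of mt-Atp8 and mt-Atp6 was 28.1%, 28.6%, 27.7% and 40.8%, with an exact 95% binomial interval of 40.7% to 41.0% in H3R26C 5-Aza. The other three lay within 1 percentage point of each other. The summed level of this pair had a log2 ratio of -0.16 for 5-Aza in H3R26C, where mt-Atp8 was at 0.40 and mt-Atp6 at -0.45. In H3WT it was -0.48, close to that of each gene, and the share hardly differed. The mt-Nd4l share of mt-Nd4l and mt-Nd4 was 60.6%, 68.5%, 59.9% and 72.6%, so here both 5-Aza libraries were above both DMSO libraries. The summed level of mt-Nd4l and mt-Nd4 had a log2 ratio of -0.26 for 5-Aza in H3R26C and -0.06 in H3WT. Between the genotypes with 5-Aza it was -0.63, lower in H3R26C. How reads at these positions were assigned was not tested.

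The higher mt-Atp8 share in H3R26C 5-Aza was present in the cells at large. Over cells with at least 20 UMIs of the pair, the median share per cell was 27.9%, 28.4%, 27.4% and 40.6%, and the lower quartile in H3R26C 5-Aza, 35%, was above the upper quartile of each other library, 31.9% to 33.7%. It held at 38.7% to 43.5% in the 3 ranges of depth, 5000 to 10000, 10000 to 20000 and at least 20000 UMIs, where the other libraries were between 26.6% and 30.7%. It was 39.9% in cells with mitotic genes and 40.6% to 40.9% in the 3 hypoxia-list ranges described further on. Left-out barcodes had higher mt-Atp8 shares in every library, 36.0%, 37.8%, 36.2% and 48.1%. Among the genes for handling mitochondrial RNA, Pnpt1 (polynucleotide phosphorylase, an exoribonuclease) was at 5.99, 8.60, 10.1 and 23.0 CPM, and Lrpprc, which stabilises mitochondrial messenger RNAs, at 35.3, 31.8, 37.9 and 21.9 CPM. Their part in the difference was not tested.

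The nuclear part differed from the mitochondrial part in its order over the libraries. With 5-Aza in H3R26C both summed levels were lower by a similar amount (-0.13 and -0.10), whereas in the other three comparisons the mitochondrial genes were lower and the nuclear genes were not. The ratio of nuclear subunit UMIs to mt- UMIs was 0.719 in H3WT DMSO, 0.964 in H3WT 5-Aza, 1.15 in H3R26C DMSO and 1.12 in H3R26C 5-Aza. Per cell, the median share of mt- UMIs was 3.86%, 2.87%, 2.76% and 2.55%, and that of nuclear subunit UMIs 2.71%, 2.76%, 3.15% and 2.87%. The quartiles of the mt- share in H3WT DMSO, 3.14% and 4.80%, overlapped those of the other libraries, of which the highest upper quartile was 3.57%. The mt- share fell with depth in every library, from 5.77% in cells of 5000 to 10000 UMIs to 3.73% in cells of at least 20000 UMIs in H3WT DMSO and from 3.68% to 2.19% in H3R26C 5-Aza. H3WT DMSO, the deepest library, was the highest in mt- share in every range of depth, with 5.77%, 4.62% and 3.73% from the shallowest to the deepest against at most 5.37%, 3.11% and 2.55% in the others.

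Over the cells of a library, the nuclear share of the UMIs of other genes than mt- genes and the mt- share correlated weakly, with Pearson's r of 0.16 over 3710 cells, -0.11 over 5993 cells, 0.12 over 4727 cells and -0.39 over 7619 cells. The points share their library and depth, and depth itself correlated with the mt- share (r of -0.31, -0.27, -0.44 and -0.34 for the logarithm of UMIs) and, in H3R26C 5-Aza, with the nuclear share (0.39). No relation between both parts within the cells was read from these values.

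The largest differences between libraries were in tissue forms of complex IV. Ndufa4l2 was at 0.61 CPM, 46.7 CPM, 0.404 CPM and 211 CPM, the latter from 23367 UMIs. Its exact 95% Poisson interval was 45.3 to 48.2 CPM in H3WT 5-Aza and 208 to 214 CPM in H3R26C 5-Aza, and the DMSO libraries held 53 and 34 UMIs. Ndufa4l2 made up 0.082%, 6.17%, 0.0448% and 25.9% of the UMIs of Ndufa4 and Ndufa4l2, so that the order of the libraries was the same for the level and for the share.

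Cox6a2, the muscle form of subunit VIa, was at 0.794 CPM, 25.5 CPM, 0.583 CPM and 27.5 CPM, and its share of Cox6a1 and Cox6a2 was 0.157%, 4.50%, 0.093% and 4.04%. Both 5-Aza libraries were close to each other for this gene, and without barcodes of at least 1% sarcomeric UMIs the share was 1.28% and 0.939%. Cox7b2 was at 0.38 CPM from 33 UMIs, 10.3 CPM from 866 UMIs, 0.0119 CPM from 1 UMI and 15.8 CPM from 1751 UMIs. Its share of Cox7b and Cox7b2 was 2.92% and 4.67% with 5-Aza and at most 0.108% with DMSO.

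Cox7a1 and Cox8b followed other patterns. Cox7a1 was at 3.09 CPM, 5.50 CPM, 8.32 CPM and 14.8 CPM, higher in H3R26C than in H3WT under both treatments. With 5-Aza it was higher in both genotypes over all cells, but without the sarcomeric barcodes the log2 ratio was 0.30 in H3WT and 0.07 in H3R26C. Its share of Cox7a1 and Cox7a2 was 0.729%, 1.31%, 1.67% and 3.36%, the latter 2.04% without the sarcomeric barcodes. Cox8b was at 12.8 CPM, 31.98 CPM, 10.8 CPM and 11.6 CPM, so that H3WT 5-Aza alone stood apart, and its share of Cox8a and Cox8b was 0.743%, 1.84%, 0.535% and 0.667%, the latter 0.266% without the sarcomeric barcodes. Cox4i2, the lung form of subunit IV, stayed low at 0.207, 0.213, 0.309 and 0.894 CPM, and Cox6b2 and Cox8c had at most 27 UMIs in a library. None of the widely expressed partners passed 1.5-fold in the comparisons as reported: Cox6a1 was at 505 CPM, 541 CPM, 626 CPM and 654 CPM and Cox8a at 1704 CPM, 1704 CPM, 2005 CPM and 1732 CPM. Ndufa4 came closest to it, with a log2 ratio of -0.58 with 5-Aza in H3R26C. In that comparison Cox8a (-0.21) differed more than Cox8b (0.10).

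**Figure D3:**
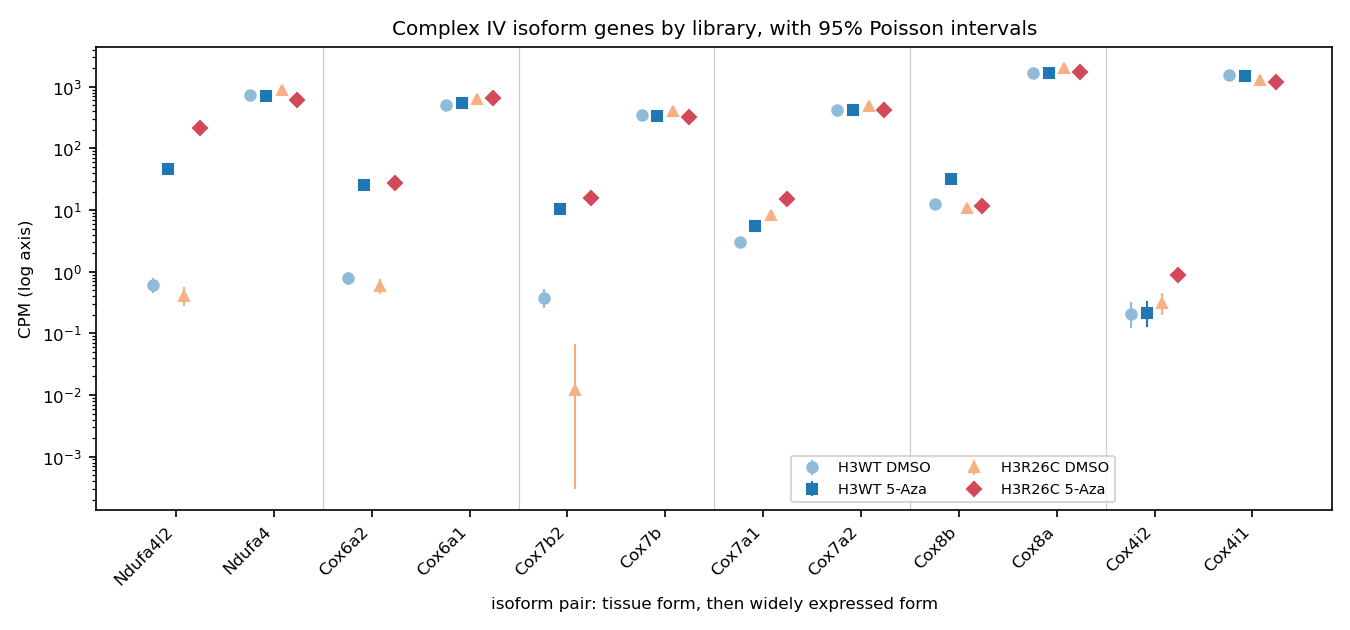
CPM of 6 pairs of complex IV isoform genes on a log axis, with 1 symbol per library and bars for the 95% Poisson interval (counting error only). Ndufa4l2, Cox6a2 and Cox7b2 are at or below 0.794 CPM with DMSO and at 10.3 CPM or more with 5-Aza. The widely expressed partners differ less than these 3 forms, Ndufa4 the most among them, from 602 to 902 CPM.

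5-Aza lowers the methylation of cytosine in the sequence CG (CpG), and the promoters of the isoform pairs differ in CpG. Methylation was not measured here, and a relation between CpG and the levels was not tested. RefSeq promoter windows on GRCm38.p6 were found for 73 of the 88 nuclear members. Counting CG in the 250 bases before the start, taking the highest window of each gene, the median was 15 for these members and 6 for all 27025 genes with a window, and 68 of 73 were above the median of all genes. These 27025 genes, also the base of the window shares below, were not limited to genes of at least 100 UMIs as the members were. The fewest were in Cox8b, with 1 CG, and then in Cox7a1 and Ndufc2 with 4, whereas the partners Cox8a and Cox7a2 had 11 and 14. The order was the reverse in the third pair with windows, with 9 CG in Cox7b2 and 5 in Cox7b, although the start used for Cox7b2 matched no transcript of GENCODE M21. The windows of the Cox8 and Cox7a pairs are shown because they hold the lowest counts beside their widely expressed partners, with each CG in capitals.
Cox8b (chr7:140900447-140900696, minus strand): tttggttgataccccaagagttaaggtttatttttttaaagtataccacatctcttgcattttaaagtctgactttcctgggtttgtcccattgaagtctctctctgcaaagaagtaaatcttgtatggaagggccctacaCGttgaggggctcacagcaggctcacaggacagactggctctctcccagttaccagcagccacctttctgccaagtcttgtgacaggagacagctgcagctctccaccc
Cox8a (chr19:7217617-7217866, minus strand): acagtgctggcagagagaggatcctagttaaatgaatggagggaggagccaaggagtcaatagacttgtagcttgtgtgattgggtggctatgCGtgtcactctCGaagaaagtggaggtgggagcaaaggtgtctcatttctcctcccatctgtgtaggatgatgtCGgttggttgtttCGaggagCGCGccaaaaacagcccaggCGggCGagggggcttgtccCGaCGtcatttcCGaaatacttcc
Cox7a1 (chr7:30183921-30184170, plus strand): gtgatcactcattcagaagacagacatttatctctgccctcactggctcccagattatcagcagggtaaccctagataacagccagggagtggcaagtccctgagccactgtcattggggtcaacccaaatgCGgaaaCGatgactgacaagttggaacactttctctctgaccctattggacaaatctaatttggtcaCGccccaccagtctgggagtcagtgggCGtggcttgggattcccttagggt
Cox7a2 (chr9:79759854-79760103, minus strand): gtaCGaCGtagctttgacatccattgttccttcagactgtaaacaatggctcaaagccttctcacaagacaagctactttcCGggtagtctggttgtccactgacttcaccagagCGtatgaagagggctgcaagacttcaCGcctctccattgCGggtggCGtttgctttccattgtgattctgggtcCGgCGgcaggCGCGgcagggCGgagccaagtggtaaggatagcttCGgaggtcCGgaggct

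As few CG as in the Cox8b window were present in 18.3% of all genes, as few as in Cox7a1 in 42.4%, in Cox8a in 64.1% and in Cox7a2 in 70.4%. No window was used here for Ndufa4l2, Cox6a2, Cox4i2 and Cox4i1. The NRF1 core CGCATGCG, bound by a regulator of many respiratory chain genes and equal to its own reverse complement, was present in the 300-base windows of 11 of 73 members (15.1%) and 2.07% of all genes. The 11 were Ndufa8, Ndufaf5, Ndufaf4, Atp5k, Cox6a1, Atp5l, Uqcrc1, Uqcr11, Atp5g2, Atp5j and Ndufa11. The ETS site CCGGAAGT, on either strand, was in 5 of 73 (6.85%) and 4.31% of all genes. The letters CAGCTG, an E-box of the kind that myogenic factors bind, were in 6 of 73 (8.22%) and 18.3% of all genes, and of the tissue forms with a window only that of Cox8b held them. None of the 3 motifs contains another, and a match is a description of the sequence.

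Cox6a2, Cox7a1 and Cox8b were at higher levels in cells with more sarcomeric RNA, and most UMIs of Cox6a2 came from such cells. Cells were placed in ranges by the share of their UMIs from 16 sarcomeric genes such as Acta1, Myh3 and Tnnt3: below 0.1%, 0.1% to 1%, 1% to 5% and at least 5%. The highest range held 93 cells in H3WT 5-Aza, 107 in H3R26C 5-Aza, 0 of 3710 in H3WT DMSO and 0 of 4727 in H3R26C DMSO. In these DMSO libraries 3 cells would make shares of 0.0809% and 0.0635%. In H3WT 5-Aza, Cox6a2 was at 5.13 CPM, 25.5 CPM, 205 CPM and 959 CPM from the lowest range to the highest, and in H3R26C 5-Aza at 4.62 CPM, 23.1 CPM, 303 CPM and 799.7 CPM. The highest range held 63.1% and 54.2% of all Cox6a2 UMIs of these libraries. For Cox7a1 it held 22.6% and 25% and for Cox8b 18.0% and 36.3%, while cells below 0.1% held 60.8% and 47.7% of the Cox7a1 UMIs and 64.6% and 29.1% of the Cox8b UMIs. Cox8b and Cox7a1 were also present in the DMSO libraries, which had no cell of 0.1% or more. Cox6a1, the partner of Cox6a2, was lower in the highest range of both 5-Aza libraries. It was at 259 CPM and 348 CPM there, against 549 CPM and 663 CPM in their lowest range.

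Within the highest range the Cox6a2 share of Cox6a1 and Cox6a2 was 78.8% (95% interval 76.7% to 80.7%) in H3WT 5-Aza and 69.7% (67.8% to 71.5%) in H3R26C 5-Aza. The other muscle forms stood in the opposite order to each other. Cox7a1 was at 74.2 CPM (95% interval 60.7 to 89.8) in H3WT 5-Aza and 199 CPM (180 to 219) in H3R26C 5-Aza, whereas Cox8b was at 343 CPM (313 to 375) and 226 CPM (206 to 248). These intervals do not overlap, and there is no replicate of either library. After each cell was thinned to 5000 UMIs, a UMI of Cox6a2 was found in 71.0% (95% binomial interval 60.6% to 79.9%) of the 93 cells and in 71.0% (61.5% to 79.4%) of the 107 cells. In cells below 0.1% sarcomeric UMIs it was 2.38% and 2.17% with 5-Aza, and 0.377% and 0.148% with DMSO. Without thinning these shares were 80.6%, 80.4%, 5.85%, 5.80%, 1.51% and 0.740%.

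**Figure D4:**
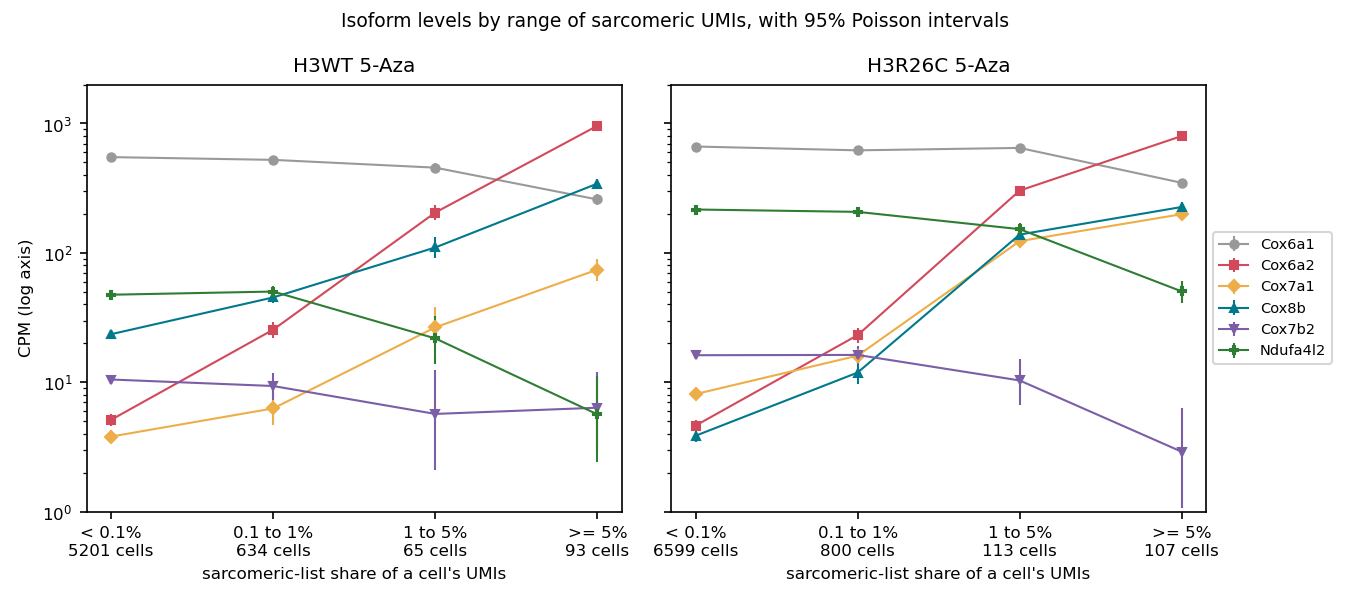
CPM on a log axis of 6 isoform genes in the 4 ranges of sarcomeric share, for both 5-Aza libraries, with the number of cells under each range and bars for the 95% Poisson interval. Cox6a2, Cox7a1 and Cox8b climb with the range, Cox6a2 from 5.13 to 959 CPM in H3WT 5-Aza, whereas Cox7b2 and Ndufa4l2 do not.

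In the 5-Aza libraries, Cox6a2 stood in a broadly similar proportion to the sarcomeric genes over the ranges, highest in the lowest range. With DMSO the proportion was higher, with Cox6a2 at 0.794 CPM (H3WT) and 0.583 CPM (H3R26C) beside 29.2 CPM and 23.2 CPM of sarcomeric genes. Most of these sums was Tnni1 (21.1 and 14.4 CPM) and Tnnt1 (5.32 and 5.97 CPM). With 5-Aza Acta1, Ttn and Mylpf were the highest of the list, so the proportions with DMSO and 5-Aza rest on different genes. Per 1000 sarcomeric UMIs there were 14.6, 11.4, 8.28 and 11.3 Cox6a2 UMIs from the lowest to the highest range of H3WT 5-Aza and 9.40 in its left-out barcodes, and 13.3, 9.69, 10.2, 9.72 and 10.2 in H3R26C 5-Aza. In droplet data free RNA gives all cells a low level of such genes, and the low Cox6a2 level in cells below 0.1% was not told apart from it. Cox8b did not keep such a proportion: per 1000 sarcomeric UMIs it was at 66.8 in the lowest range and 4.05 in the highest of H3WT 5-Aza. No doublets were removed, and 30 and 51 cells lay within 20% of the 5% limit.

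Nuclear subunit genes as a whole were also higher in these cells. They took 4.66% and 4.1998% of UMIs at 5% or more sarcomeric UMIs against 2.86% and 2.96% below 0.1%. The mt- share was 3.64% against 2.95% in H3WT 5-Aza and 5.48% against 2.59% in H3R26C 5-Aza. The ratio of nuclear to mt- UMIs in the highest range was 1.28 in H3WT 5-Aza and 0.767 in H3R26C 5-Aza, the reverse of the order of the whole libraries. In cells of 1% to 5% sarcomeric UMIs it was 0.877 and 1.48, in the same order as the whole libraries, so the reversal was limited to the highest range.

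Ndufa4l2 and Cox7b2 were not concentrated in cells with sarcomeric RNA. Ndufa4l2 was lowest in the highest sarcomeric range, at 5.65 CPM in H3WT 5-Aza and 50.4 CPM in H3R26C 5-Aza, and below 0.1% it was at 47.5 CPM and 216 CPM. Cells below 0.1% held 89.3% and 89.7% of its UMIs. Ndufa4 was the reverse, at 1245 CPM and 932 CPM in the highest sarcomeric range and 701 CPM and 594 CPM in the lowest. Cox7b2 was at 10.5 CPM and 16.2 CPM below 0.1% and at 6.36 CPM and 2.91 CPM at 5% or more, from 9 and 6 UMIs.

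A UMI of Ndufa4l2 was found in 7.81% of thinned cells of H3WT 5-Aza and in 30.5% (95% binomial interval 29.5% to 31.6%) of H3R26C 5-Aza, against 0.270% and 0.233% with DMSO. For Cox7b2 the shares were 4.12% and 7.46% with 5-Aza and 0.108% and 0 of 4727 cells with DMSO. The 95% binomial interval of the latter reaches 0.0780% of cells with a UMI after thinning and sets no limit on cells that express the gene. Without thinning, 1 cell of H3R26C DMSO had a UMI of Cox7b2 (0.0212%). A background share of free RNA was not determined for these 2 genes. In the 93 and 107 cells of at least 5% sarcomeric UMIs the shares were 2.15% and 12.1% for Ndufa4l2 and 2.15% and 0.935% for Cox7b2.

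Within each 5-Aza library, Ndufa4l2 was higher in cells with more RNA of a list of hypoxia-related genes. The list of 8 genes (Hif1a, Vegfa, Slc2a1, Pdk1, Bnip3, Ankrd37, Car9 and Egln3) had 4 of 8 at least 1.5-fold higher with 5-Aza in H3WT and 7 of 8 in H3R26C, where 8.94% and 14.5% of all genes were higher, with medians of 0.56 and 1.42 on the log2 scale where all genes had 0.045 and -0.013. Egln3 was at 0.0115, 3.85, 0 and 20.8 CPM and Car9 at 30.4, 44.5, 2.57 and 131 CPM. Hif1a itself, whose protein is controlled after translation, was at 144, 152, 132 and 148 CPM. The 8 genes summed to 318, 399, 292 and 682 CPM, and Hif1a was the highest of them in all libraries but H3R26C 5-Aza. How far Hif1a placed cells in the ranges below, above all with DMSO, was not tested. Cells were then placed by their share of UMIs from this list at limits of 0.05% and 0.15%, which were chosen after the values were seen.

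In H3WT 5-Aza, Ndufa4l2 was at 23.3 CPM below 0.05% (4464 cells), 107 CPM between the limits (1471 cells) and 324 CPM at 0.15% or more (58 cells). In H3R26C 5-Aza it was at 108 CPM (3482 cells), 281 CPM (3466 cells) and 403 CPM (671 cells). Ndufa4 moved the opposite way over the same ranges, from 746 CPM to 613 CPM and 386 CPM in H3WT 5-Aza and from 749 CPM to 505 CPM and 319 CPM in H3R26C 5-Aza. Ndufa4 was also lower with more hypoxia-list UMIs in H3WT DMSO, at 758 CPM, 642 CPM and 458 CPM, the last from 12 cells. It was not lower in H3R26C DMSO, at 899 CPM and 931 CPM below and above the first limit. In cells of 0.05% to 0.15%, Ndufa4l2 was at 0.882 CPM in H3WT DMSO and 0.671 CPM in H3R26C DMSO, from 442 and 559 cells. A rise over these ranges was not particular to Ndufa4l2. From the lowest range to the highest, Cox7a1 was found in 1.84%, 2.92% and 3.45% of thinned cells of H3WT 5-Aza. In H3R26C 5-Aza the shares were 3.45%, 5.28% and 10.7%. With DMSO, Cox8b was found in 2.15% (H3WT) and 1.92% (H3R26C) of thinned cells below 0.05%, and in 7.01% and 6.80% between the limits. The ranges are of a score, not cell types, and 1291 cells of H3WT 5-Aza and 1393 of H3R26C 5-Aza lay within 20% of the 0.05% limit.

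**Figure D5:**
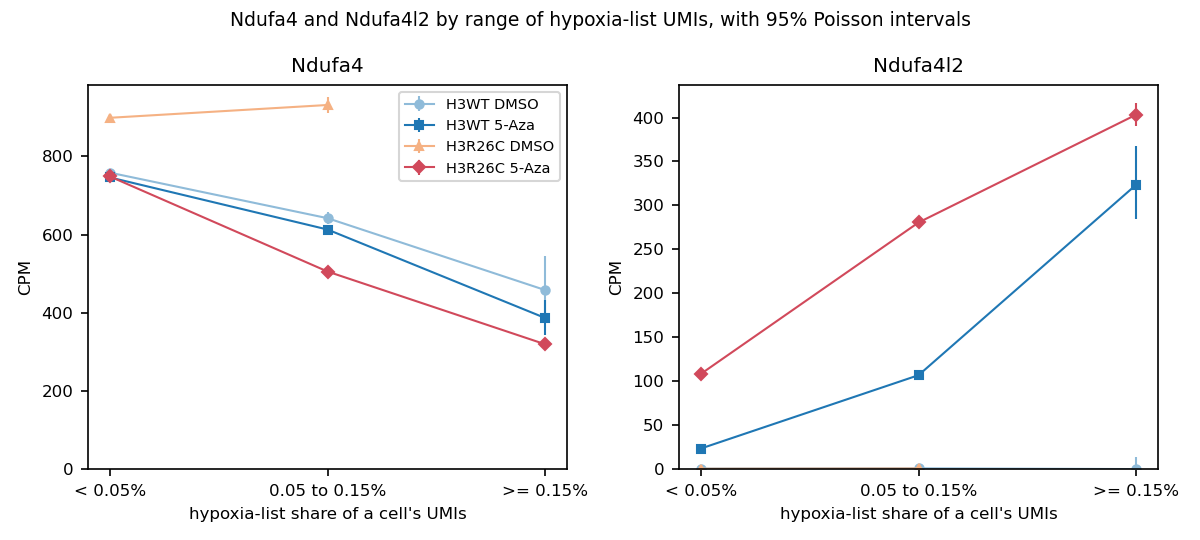
CPM of Ndufa4 (left) and Ndufa4l2 (right) in 3 ranges of the hypoxia-list share of a cell's UMIs, with 1 line per library, bars for the 95% Poisson interval, and points of fewer than 10 cells left out. Ndufa4 falls and Ndufa4l2 climbs in both 5-Aza libraries, from 749 to 319 CPM and from 108 to 403 CPM in H3R26C 5-Aza.

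Cells with adipocyte RNA had the highest nuclear shares of any range in each library. The range of at least 0.5% of UMIs from 8 adipocyte genes such as Adipoq and Plin1 held 7, 31, 12 and 14 cells, so its values rest on few cells. Nuclear subunit genes took 9.74%, 7.13%, 11.2% and 5.45% of UMIs there, against 2.82%, 2.87%, 3.28% and 3.01% in cells below 0.1%. The mt- share was 11.6%, 6.31%, 7.55% and 3.77%, against 3.92%, 2.98%, 2.87% and 2.69%. Cox8b was at 786 CPM, 408 CPM, 461 CPM and 42.1 CPM in this range, so the H3R26C 5-Aza cells were below those of the other libraries. In cells of 0.1% to 0.5%, 15, 68, 8 and 95 in number, it was at 830.1 CPM, 301 CPM, 496 CPM and 36.4 CPM, and the cells of H3WT 5-Aza and H3R26C 5-Aza held 9182 CPM and 8226 CPM of sarcomeric genes. Cox8a, its partner, was at 6310.3 CPM, 5198 CPM, 8081 CPM and 3952 CPM in cells of at least 0.5%. The H3WT 5-Aza cells of at least 0.5% held 12115 CPM of sarcomeric genes, against 184 CPM in H3R26C 5-Aza, and the part of doublets was not tested. With 5-Aza in H3R26C, Fabp4 (log2 ratio 0.66) and Car3 (2.80) were higher. The other genes of the list, among them Adipoq (-0.43) and Plin1 (-0.48), were lower. In H3R26C 5-Aza the nuclear share in cells of 0.1% to 0.5% was no higher than below 0.1%. In the other libraries that range had 6.03%, 3.47% and 6.45%. Which genes of the list placed cells in a range was not tested, so the cells compared for Cox8b may differ in kind.

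Ucp1, the uncoupling protein of brown fat, had 1, 1, 1 and 45 UMIs in the kept cells, and Cidea at most 14 UMIs in a library. Of the 8 thermogenic genes 3 passed the minimum of 100 UMIs. Ucp2 and Dio2 were at least 1.5-fold higher with 5-Aza in both genotypes, where 8.94% (H3WT) and 14.5% (H3R26C) of all genes were. Dio2, an enzyme that activates thyroid hormone, was at 0, 3.54, 0.25 and 8.29 CPM. Cells of at least 0.1% mitotic UMIs, 143, 372, 370 and 1080 in number, had a lower mt- share than the rest of their library, at 2.57%, 2.24%, 1.93% and 2.05% against 4.04%, 3.08%, 3.02% and 2.85%, and they were deeper, with medians of 19296 to 36373 UMIs. Their nuclear share, 2.99%, 3.02%, 3.18% and 3.21%, was close to that of the rest.

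Of the genes that govern the chain, Ppargc1a stood out. It encodes PGC-1α, a coactivator that raises the expression of mitochondrial genes, and was at 37.3 CPM, 12.7 CPM, 41.3 CPM and 1.79 CPM. Both 5-Aza libraries were below both DMSO libraries, with log2 ratios of -1.49 in H3WT and -3.92 in H3R26C. It was found in 16.7%, 5.66%, 15.8% and 1.09% of thinned cells. Below 0.1% sarcomeric UMIs the levels were 13.1 CPM in H3WT 5-Aza and 1.91 CPM in H3R26C 5-Aza. These cells held 91.1% and 93.4% of the Ppargc1a UMIs of their libraries, so their levels could hardly differ from those of all kept cells. Among the 7 of 10 listed regulators that passed the minimum, Ppargc1b was 1.5-fold higher with 5-Aza in H3R26C at 2.51 and 4.81 CPM. Nrf1, Gabpa, Esrra, Yy1 and Pprc1 passed 1.5-fold in 0 of the 4 comparisons. Per comparison and direction, 1.62% to 14.5% of all genes passed it.

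Most other parts of the pathway also differed little between the libraries. None of the 4 complex II genes, the 2 genes of cytochrome c and cytochrome c1, the 14 genes of the citrate cycle or the 12 import and outer membrane genes was past 1.5-fold in any comparison. Per comparison and direction, 1.62% to 14.5% of all genes were, and lists this small can have none past it at such shares. Their medians ran from -0.18 to 0.35 on the log2 scale. Cyc1, the cytochrome of complex III, was at 133, 166, 189 and 215 CPM, in the same order as Vdac1, an outer membrane channel, at 152.4, 190.2, 190.5 and 273 CPM. Of the 15 genes for mitochondrial transcription, replication and RNA handling, Pnpt1 was past 1.5-fold higher in 3 comparisons, where 5.17% to 14.5% of all genes were. Lrpprc was past it on the lower side in 1, where 9.26% of all genes were. Tfam, the main mitochondrial transcription factor, was at 25.03, 32.2, 29.7 and 32.9 CPM.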

How the data were processed

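Single-cell RNA sequencing was analysed in 4 libraries of C3H10T1/2 cells, 1 per condition. The authors aligned and counted the reads with Cell Ranger (6.1.0 in the headers of the deposited matrices) on mm10 and deposited UMI counts of genes for barcodes called as cells, with no normalization. How intronic, multi-mapped and antisense reads were treated is not given in the sources used here, and reads shared with near-identical gene copies were not examined. The filter on barcodes has the limits of the study's methods. No doublets were removed. Members and gene lists were chosen with earlier results of these data known.

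Counts were summed over kept barcodes (84060490 to 110712425 UMIs per library) and scaled to CPM. For single genes 1 CPM was added before taking log2, and nothing was added for summed lists. Intervals of levels are exact Poisson and of shares exact binomial (95%). No test between conditions was made, since each has 1 library. Apart from the mt- genes, isoforms and list genes, named nuclear members are the 5 with the highest and the 5 with the lowest log2 ratio of each comparison, provided that 1 of its libraries reached 20 CPM. Gene positions and mitochondrial sequences are from GENCODE M21 and promoters from RefSeq. The ratios were tested on simulated data. Python 3.11.15, numpy 2.4.6, scipy 1.17.1, pandas 2.3.3 and matplotlib 3.10.9 were used. Alternatives changed the denominator, the barcode filter, the depth, the weighting of cells, the pseudocount and the UMI minimum; the hypoxia-list ranges, the split of depth for the mt-Atp8 and mt-Nd4l shares and the comparison below 0.1% adipocyte UMIs were added after seeing the data.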

Additional observations from a re-analysis of the deposited data

Results flagged for a closer look

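The mitochondrial genes mt-Atp8 and mt-Nd6 differed with 5-Aza in opposite directions in the genotypes, by at least 0.25 on the log2 scale in each; with 1 library per condition this difference was not tested. For mt-Atp8 the log2 ratio with 5-Aza was -0.45 for H3WT against 0.40 for H3R26C, which differ by 0.85. For mt-Nd6 the values were -0.36 and 0.59, which differ by 0.95.

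Barcodes left out by the filter, which no comparison used, held tissue forms above the left-out barcodes of DMSO of the same genotype, with intervals that did not overlap. Cox6a2 was at 159.7 CPM in H3WT 5-Aza and 160.3 CPM in H3R26C 5-Aza. Cox8b was at 87.4 CPM and 65.3 CPM, Cox7a1 at 15.97 CPM and 42.1 CPM, Cox7b2 at 10.2 CPM and 7.40 CPM, and Ndufa4l2 at 32.5 CPM and 109 CPM. Sarcomeric genes summed to 16982 CPM and 15722 CPM in the same barcodes.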

How the results depend on the processing

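No paired analysis was possible because there was 1 library for each condition. Values are log2 ratios of summed genes where no other quantity is named. In the order 5-Aza in H3WT, 5-Aza in H3R26C, H3R26C with DMSO and H3R26C with 5-Aza, the nuclear subunit genes gave 0.03, -0.13, 0.22 and 0.06 as reported. They gave 0.018, -0.136, 0.205 and 0.051 over UMIs of genes other than mt- genes, and 0.049, -0.096, 0.228 and 0.082 under a stricter filter (10000 UMIs and 2500 genes or more, mt- UMIs up to 10%). At 10000 to 20000 UMIs they gave -0.032, which is the reverse of the reported direction, -0.192, 0.197 and 0.036. The mean of per-cell CPM gave 0.002, -0.199 and 0.018 for all but H3R26C with DMSO, and leaving out barcodes with at least 1% sarcomeric UMIs 0.012, -0.160 and 0.049 for the same. The mitochondrial genes kept their direction under each of these alternatives. Reported at -0.39, -0.10, -0.45 and -0.16, they gave -0.405, -0.107, -0.467 and -0.169 over other genes' UMIs, and -0.433, -0.177, -0.463 and -0.207 under the stricter filter. They gave -0.613, -0.193, -0.572 and -0.152 at 10000 to 20000 UMIs, -0.394, -0.092, -0.419 and -0.117 as per-cell means, and -0.385, -0.101, -0.460 and -0.176 with no limit on mt- UMIs. Without the sarcomeric barcodes they gave -0.403, -0.137 and -0.186 for all but H3R26C with DMSO. The cause of these shifts was not tested. Counts of nuclear members past 1.5-fold stayed within 1.5 times of 5, 4, 2 and 4 under the 5 alternatives tried. The genes changed, however: Cox7a1 was lost with 5-Aza in both genotypes under 3 alternatives, Cox4i2 under 2 and Atp5k under 1. Cox8b and Ndufa4 were gained on the lower side with 5-Aza in H3R26C under 2. Cox7b2 was gained between the genotypes under 1 for each treatment, lower in H3R26C with DMSO (-0.593) and higher with 5-Aza (0.593). Over all kept cells H3R26C DMSO held 1 UMI of Cox7b2. Without the sarcomeric barcodes the Cox6a2 share was 1.28% and 0.939% with 5-Aza, and the Cox7a1 share in H3R26C 5-Aza was 2.04%.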
